A study of Rangifer tarandus with 8 samples.

Results

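The collagen genes described here are the 37 protein coding genes of the annotation whose name has the form COL, a number, A and a number. They were 37 of 21861 protein coding genes and of 27607 genes of any kind. The annotation is that of the cattle (Bos taurus) genome build ARS-UCD1.2, to which the study assigned its reindeer reads, so each position and length below is a cattle one. The genes fell into 3 classes by the assembly that their proteins are known to form: 10 fibrillar, 9 network and 18 other collagen genes. They lay on 18 chromosomes, 35 on autosomes and 2 on X.

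The study made 8 single-cell ATAC-seq libraries, which map open chromatin, from reindeer (Rangifer tarandus) skin with the epidermis removed. Velvet, the skin of the growing antler, and back skin were each taken at day 0, before wounding, and at day 7 after 12 mm full-thickness wounds, with 1 library for each. The other 4 libraries came from velvet grafted onto the back, taken at 6 weeks (2 libraries), 3 months and 6 months. The labels name no allele or drug for any group. The labels gave 1006 to 20002 recovered cells per library. No accessibility value enters what follows: the values are properties of gene models, belong to no library, and carry no replicate error and no test.

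Collagens are the main proteins of the dermis. A collagen chain holds stretches of the repeated triplet glycine-X-Y, and 3 such chains wind into a triple helix. Each triplet takes 3 codons, which is 9 bases, so an exon that codes for whole triplets only has a length divisible by 9. Fibrillar collagens pack into fibrils, and types I and III of the dermis have an unbroken helix and form banded fibrils. Network collagens have a helix with interruptions or a short helix, and form sheets such as the type IV mesh of basement membranes. The other collagens attach to fibrils, span the cell membrane or form beaded filaments.

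The coding exons of fibrillar genes mostly had lengths that fit whole triplets. Only lengths were read, not the amino acids, and 1 transcript was taken for each gene, the one with the longest coding sequence. A length divisible by 9 was found in 462 of 567 fibrillar coding exons, a share of 81.5%. The share was 40.7% in network genes (98 of 241) and 35.1% in the other class (188 of 536). Over all 189135 coding exons of the other 21824 protein coding genes it was 13.8%. Coding exons of 45, 54 or 108 bases, which fit whole triplets and are the sizes that fibrillar genes are known for, made up 68.1% of fibrillar, 10.4% of network and 8.40% of other collagen exons, against 1.5% in the rest of the annotation. A length divisible by 9 is also divisible by 3, which keeps the reading frame. Among exons with a length divisible by 3, those divisible by 9 were 88.8% in fibrillar genes, 55.7% in network genes, 51.2% in the other class and 33.5% in all other genes. The order of the classes was therefore the same when only frame-keeping lengths were counted.

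A single size dominated the fibrillar class. The 54-base exon occurred 253 times among its 567 coding exons, followed by 76 exons of 108 bases, 57 of 45 bases and 26 of 99 bases, while exons of 162 bases occurred 5 times. In network genes the most frequent length was 99 bases, with 11 exons, and 54 bases occurred 9 times. In the other class 54 bases led with 31 exons, closely followed by 63 bases with 30 and by 27 and 36 bases with 26 each, all divisible by 9. Among all other protein coding genes the most frequent coding exon length was 96 bases, and 54 bases ranked 107 with 767 exons.

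**Figure D1:**
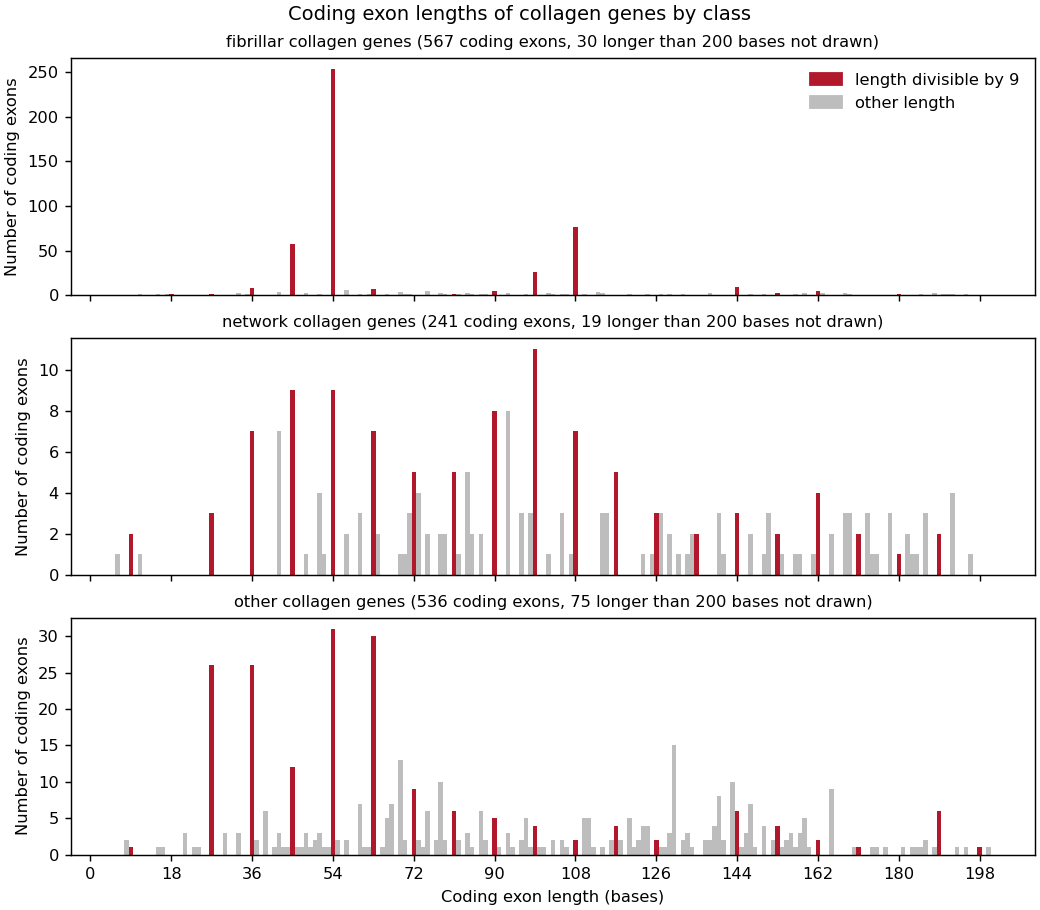
Number of coding exons (vertical axis) at each coding exon length in bases (horizontal axis) in fibrillar, network and other collagen genes, each panel on its own scale; red bars mark lengths divisible by 9 and exons over 200 bases are not drawn. Fibrillar exons pile up at 54, 108, 45 and 99 bases, whereas network and other collagen exons spread over many lengths.

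Within the fibrillar class the genes resembled each other. COL3A1, the chain of type III collagen, had the highest share divisible by 9, 88.2% of 51 coding exons. COL1A1 and COL1A2, the chains of type I collagen, the main collagen of skin and bone, had 86.3% of 51 and 86.5% of 52. COL2A1, the cartilage collagen, had 85.2% of 54. COL27A1, a minor fibrillar collagen of cartilage, had 86.9% of 61 and the largest share of 54-base exons, 54.1%. The chains of types V and XI, which are known to sit inside fibrils and to set their width, came next: COL11A1 had 80.6%, COL11A2 78.8%, COL5A1 77.3% and COL5A3 76.1%. COL5A2 was lowest on each of these measures, with 65.6% divisible by 9, 18.8% of 54 bases and 32 coding exons. The other 9 fibrillar genes had 51 to 67 coding exons. The 5 coding transcripts of COL5A2 had 23 to 34 coding exons and 65.6% to 70.0% divisible by 9. None of them had a 5' untranslated region, and whether the COL5A2 model holds every exon was not tested.

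In fibrillar genes the exons with lengths divisible by 9 stood side by side. In COL1A1 a run of 41 consecutive coding exons, all of 45, 54, 99, 108 or 162 bases, spanned 2988 bases, the length of 332 triplets, and made up 68.1% of the coding sequence. COL1A2 and COL2A1 each had 42 such exons over the same 2988 bases. COL3A1 had 43 exons over 3078 bases, the length of 342 triplets. In COL11A1, COL11A2 and COL5A3 the run had 48 exons, and in COL5A1 it had 47, each time over 2979 bases, the length of 331 triplets. The run of COL27A1 was shorter, 38 exons over 2079 bases, and ended at a 57-base exon, after which further exons divisible by 9 followed. COL5A2 had the shortest, 10 exons over 810 bases. In its model an exon of 75 bases ended that run, and an exon of 120 bases stood among later exons that are divisible by 9.

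The 10 runs held 407 exons, and all of them began on a whole codon. The 105 fibrillar exons not divisible by 9 lay outside the runs, as the way a run is defined requires. The exons before the run numbered 3 to 14, and which part of the protein they code for was not read. After the run 4 or 5 coding exons followed in 8 genes, 20 in COL27A1 and 17 in COL5A2. Some of the exons after the run were also divisible by 9. The last coding exon, which ends the carboxy-terminal propeptide that aligns the chains, had 144 bases in 9 of 10 genes, and 138 bases in COL11A2.

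**Figure D2:**
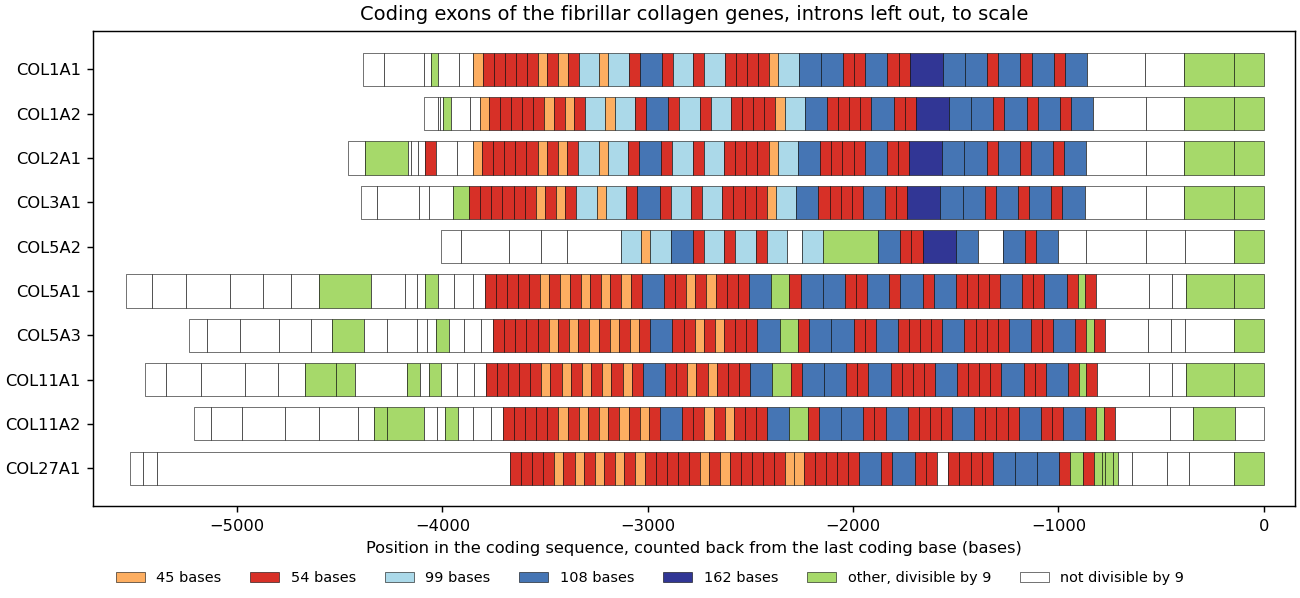
Coding exons of the 10 fibrillar genes drawn to scale end to end without introns, 1 row a gene, against the position in the coding sequence counted back from its last base; colours mark exon length. COL1A1, COL1A2, COL2A1 and COL3A1 show nearly the same order of sizes, COL5A1, COL5A3, COL11A1 and COL11A2 another, and the row of COL5A2 has fewer and longer exons.

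Exon borders fell at the same places within 2 sets of 4 fibrillar genes, which were chosen with these values known. When the runs were laid over each other from the first exon of their longest common series, the 6 gene pairs among COL1A1, COL1A2, COL2A1 and COL3A1 shared 40 to 41 exon borders. COL1A1 lacked 1 border that the other 3 genes have. COL5A2, whose run is short, was not laid over them, and shared at most 6 equal exon lengths in a row with each of these 4 genes. The 6 gene pairs among COL5A1, COL5A3, COL11A1 and COL11A2 shared 46 to 47. Between these sets of 4 genes, 34 to 35 borders coincided over 2943 bases, which was 73.9% to 89.7% of either gene's borders, and the ends of the runs lay 36 bases apart. The longest series of equal exons was that of COL11A1 and COL5A3, with 53 coding exons in a row. In all such series an exon counted as equal only if its length and its starting place within the codon both matched. Series equal in length alone were not counted. COL1A2 and COL2A1 had 42 in a row, on chromosomes 4 and 5. COL27A1 shared 14 in a row with the type V and XI set. The longest series of this kind that any collagen gene shared with a gene outside the family had 3 exons. A longer one was shared with another collagen gene by 20 of the 37 collagen genes. Gene by gene, the longest series was longer with another collagen gene in 21, equal in 4 and shorter than with an outside gene in 12, among them COL17A1, COL18A1 and COL8A1.

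Gene length varied far more than coding length among fibrillar genes. COL1A1 (chromosome 19, bases 36457658 to 36474513) was the shortest at 16.9 kb and COL11A1 (chromosome 3, 40305057 to 40530663) the longest at 226 kb, a 13.4-fold range, whereas coding length ranged 1.38-fold. The median intron of COL1A1 had 149 bases and that of COL11A1 1369, and the range over the 10 genes was 9.22-fold. Coding bases thus took 26.0% of the COL1A1 gene and 2.42% of COL11A1. COL3A1 (chromosome 2, 7375289 to 7414912) spanned 39.6 kb and COL1A2 (chromosome 4, 11776554 to 11812997) 36.4 kb. Across the 10 fibrillar genes, which share ancestry and so are not independent points, the rank correlation of coding exon number with gene length was 0.24, and across all 37 collagen genes it was 0.22. The median gene length was 42.1 kb in the fibrillar, 113 kb in the network and 83.6 kb in the other class, and the ranges of the 3 classes overlapped.

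**Figure D3:**
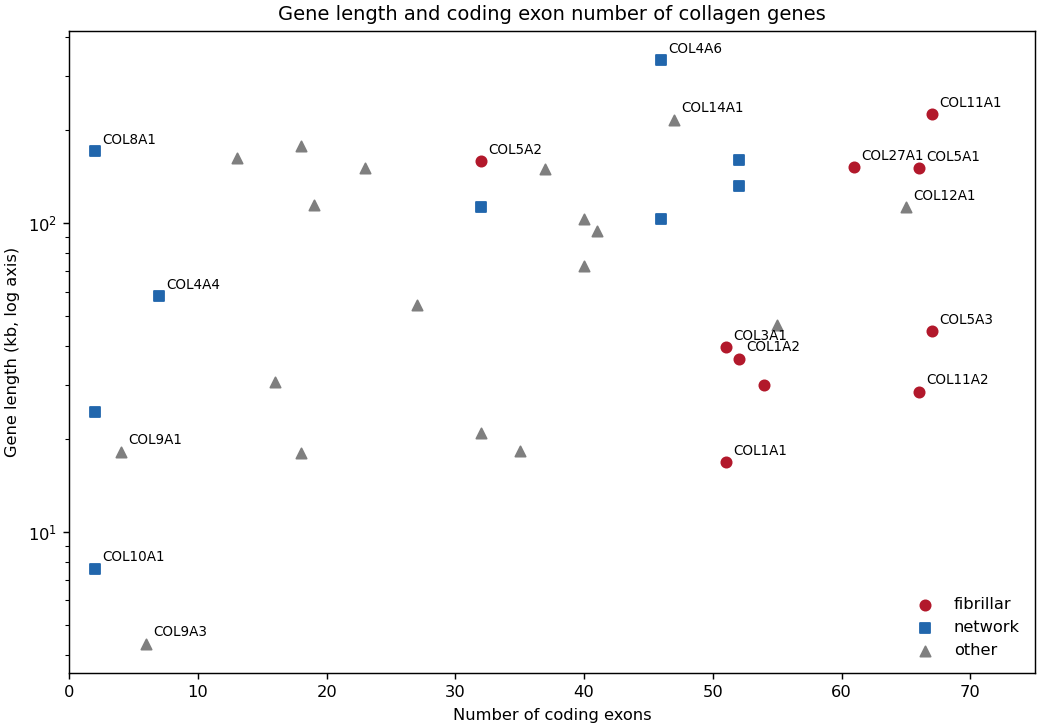
Gene length in kb (vertical axis, log scale) against the number of coding exons (horizontal axis) for the 37 collagen genes, 1 point a gene, marked by class. Fibrillar genes with 51 to 67 coding exons extend from 16.9 kb (COL1A1) to 226 kb (COL11A1), and the network genes COL8A1 and COL10A1 with 2 coding exons lie at 171 and 7.60 kb.

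The network class held 2 kinds of gene. The 6 COL4 genes, which code for the chains of basement membrane collagen, had a median of 46 coding exons, and 41.7% of their exons had a length divisible by 9. COL4A6 was highest with 56.5% and COL4A5 lowest with 32.6%. Their longest run of exons divisible by 9 was 7 exons, in COL4A6, and COL4A1 and COL4A3 had runs of 6. COL8A1, COL8A2 and COL10A1 form the short-chain collagens of hexagonal lattices. Each had 2 coding exons, of which none was divisible by 9, and 1 exon held 85.3% to 92.4% of the coding bases. COL10A1, the collagen of hypertrophic cartilage, was the shortest network gene at 7.60 kb, and COL4A6 the longest at 337 kb.

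The COL4 genes are known to fall into alpha1-like chains (COL4A1, COL4A3, COL4A5) and alpha2-like chains (COL4A2, COL4A4, COL4A6), and exon lengths followed that division where the models were long. Of 52 coding exons in each, COL4A1 and COL4A3 matched in length and order at 38. COL4A1 and COL4A5 matched at 35, and COL4A3 and COL4A5 at 29. COL4A2 and COL4A6 matched at 16, which is 50% of the 32 coding exons of COL4A2 and 34.8% of the 46 of COL4A6. Across the division 0 to 10 exons matched. The model of COL4A4 had 7 coding exons over 1350 bases and no start codon, and its matches with the other alpha2-like genes were 1 each.

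The other class ranged from near-fibrillar to near-background values. Its transmembrane collagens were highest as a group, with 62.7% of coding exons divisible by 9. COL23A1 had 72.2% of 18 coding exons, COL13A1 70.3% of 37, and COL17A1, the hemidesmosome collagen that anchors basal keratinocytes, 54.5% of 55. The COL23A1 model lacked a start codon and the COL13A1 model a stop codon, so only COL17A1 had both. In the multiplexins, which release endostatin-type fragments, the share was 43.9% in COL18A1 and 30.0% in COL15A1. COL6A1 had 54.3%, COL6A2 43.8%, COL6A3 30.0%, COL6A6 26.3% and COL6A5 8.70%. For COL6A2 and COL6A5 the value rests on the transcript: that of COL6A2 with 27 coding exons, against 16 in the one taken, had 66.7%, above COL6A1, and that of COL6A5 with 35, against 23, had 51.4%. These are the chains of beaded filaments, in which von Willebrand factor A domains surround a short helix. Coding exons of over 500 bases numbered 10 in COL6A3, 8 in COL6A5, 8 in COL6A6, 2 in COL6A2 and 1 in COL6A1. Among the transcripts taken, COL6A1 had the longest run of exons divisible by 9 outside the fibrillar class, 15 exons over 765 bases.

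The fibril-associated collagens, which bind to the surface of fibrils, had 22.1% as a group. COL14A1, the longest gene of the other class at 217 kb, had 29.8%. COL12A1, with the most coding exons of the class, had 21.5% of 65. COL12A1 and COL14A1 shared 11 equal exon lengths in a row. COL16A1 had 22.2% and no exon of 54 bases, and COL20A1 had 12.5%. In the short models of COL9A1 and COL9A3, 1 exon each was divisible by 9. The remaining genes were COL26A1 with 23.1% and COL28A1 with 5.56%. In the transcripts taken, COL28A1, COL6A5 and COL20A1 of the other class lay below the 13.8% of the background, but the COL6A5 transcript with 35 coding exons lay above it at 51.4%.

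The place where an exon begins within a codon set the fibrillar class apart from the pooled values of the others, though not from every gene. In 94.3% of fibrillar coding exons after the first, the exon started on a whole codon, with 90.3% in COL5A2 as the lowest gene and 96.1% in COL1A2 as the highest. The share was 40.9% in network and 51.5% in other collagen genes, against 45.3% in all other protein coding genes, and the gene values of these 2 classes overlapped. The other class held both extremes, and the lower one, 0%, was also that of COL8A1, COL8A2 and COL10A1 of the network class. Each of those network genes had 1 exon after the first. All 17 exons of COL23A1 after the first began on a whole codon, above every fibrillar gene. All 54 of COL17A1 began after the first base of a codon, an offset of 1 base. COL13A1 also lay above them with 97.2%, and COL18A1 had 85.0% and COL15A1 84.6%. The COL4 genes changed within a gene. The first 19 coding exons of COL4A1 and of COL4A3 began on a whole codon, and of the 33 exons after them 25 began after the first base of a codon. In COL4A5 the first 12 began on a whole codon, and 26 of the 34 others after the first base. Exons 3 to 5 of COL4A5 had the lengths of exons 10 to 12 of COL4A1. Counts from the first exon therefore do not line up between these models.

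**Figure D4:**
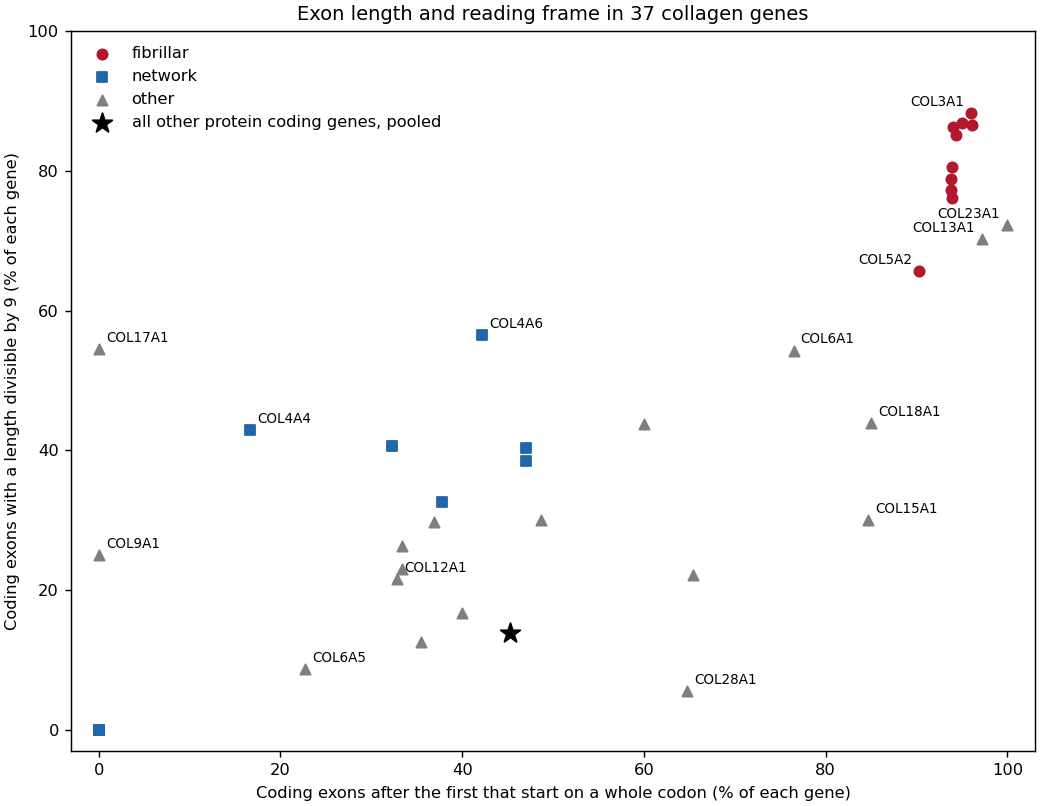
Share of coding exons with a length divisible by 9 (vertical axis, % of each gene's coding exons) against the share of coding exons after the first that start on a whole codon (horizontal axis, %), 1 point a gene; the star gives all other protein coding genes pooled. The 10 fibrillar genes lie at the upper right with COL13A1 and COL23A1, COL17A1 lies at 0% and 54.5%, and the points of COL8A1, COL8A2 and COL10A1 coincide at 0% on both axes.

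Outside the family such structures were rare. Genes with 10 or more coding exons were compared first. A length divisible by 9 in at least 50% of exons occurred in 15 of 31 collagen genes and 33 of 7113 other genes (0.464%). The 15 were all 10 fibrillar genes and COL4A6, COL6A1, COL13A1, COL17A1 and COL23A1. The longest run of coding exons with lengths divisible by 9 in another gene had 10 exons, in KIDINS220 and RXFP2, and MARCO, a macrophage scavenger receptor with a collagen-like stalk, had 8. Of 30 genes listed for enzymes, chaperones and transport factors of collagen assembly, 29 were found, and 12.8% of their 413 coding exons were divisible by 9, with no gene at 50% or more. Of 30 symbols listed for proteins with a collagen-like stretch outside the family, 30 were found, in 31 gene records. Their share was 28.1% of 185 coding exons, and 6 genes reached 50%. These were led by MARCO with 61.5% of 13 and SFTPD, a lung surfactant collectin, with 57.1% of 7. Genes of any exon number were counted in both lists, unlike in the 0.464% above. Of the 6 genes only MARCO had 10 or more coding exons. SCARA3, COLEC10 and COLEC11 had 6 each and OTOL1 had 4. In that list 76.6% of coding exons after the first began after the first base of a codon, and 16.9% on a whole codon. Over all other protein coding genes these shares were 32.1% and 45.3%. The start after the first base made up 56.0% in network, 44.4% in other and 4.85% in fibrillar collagen genes. It held for all exons after the first in COL17A1, and also in COL8A1, COL8A2, COL10A1 and COL9A1.

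Some collagen genes lay next to each other. With at most 100 kb between gene bodies and no coding gene wholly between, there were 3 neighbouring pairs. COL5A2 and COL3A1, both fibrillar, lay tail-to-tail on chromosome 2 with 18001 bases between their ends (COL5A2 at 7198509 to 7357287). COL4A1 (84863917 to 84995777) and COL4A2 (85040120 to 85153241) lay head-to-head on chromosome 12, transcribed away from each other, with 44.3 kb between them. COL4A4 (115168918 to 115226839) and COL4A3 (115318013 to 115478018) lay head-to-head on chromosome 2, 91.2 kb apart. Another 3 pairs lay within 500 kb. COL6A6 (151565699 to 151680026) and COL6A5 (151788694 to 151939725) stood in tandem on chromosome 1 at 109 kb, and COL6A1 (145668949 to 145687210) and COL6A2 (145807169 to 145837649) in tandem on the same chromosome at 120 kb. COL4A6 (56803357 to 57140369) and COL4A5 (57288214 to 57391723) lay head-to-head on X at 148 kb. No gene of any kind lay wholly between the members of these 6 pairs, and genes reaching only partly into a gap were not counted. For comparison, the median gap between neighbouring coding genes was 19.1 kb, so of these pairs only COL5A2 and COL3A1 were nearer than that.

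**Figure D5:**
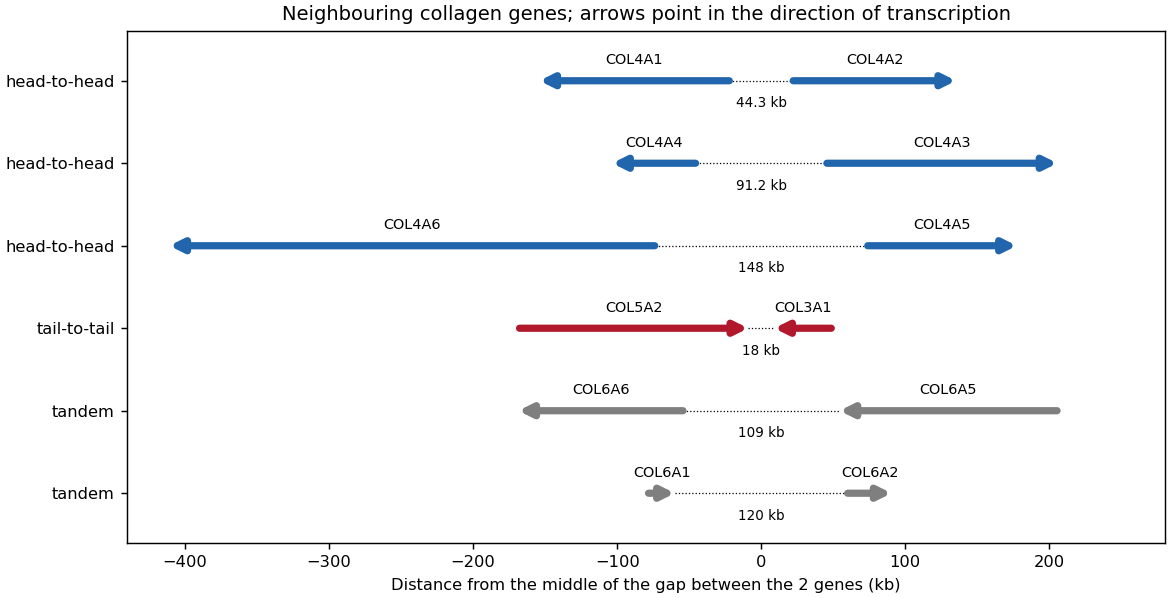
The 6 neighbouring collagen pairs drawn to scale around the middle of the gap between them (horizontal axis, kb), with arrows in the direction of transcription and the gap written below. The 3 COL4 pairs are head-to-head with gaps of 44.3 to 148 kb, the COL6 pairs are in tandem, and COL5A2 and COL3A1 point at each other across 18001 bases.

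In each head-to-head pair 1 alpha1-like gene faced 1 alpha2-like gene. In mammals these pairs are known for start regions that lie close together, but no head-to-head collagen pair lay within 3 kb in this annotation, and none within 10 kb. The models of COL4A2 and COL4A3 had no 5' untranslated region, and that of COL4A4 had neither this region nor a start codon, while COL4A1, COL4A5 and COL4A6 had both. The COL4A5 model opened with a coding exon of 6 bases. Its exons 3 to 5 had the lengths of exons 10 to 12 of COL4A1. The part of incomplete or missing first exons in these distances was not tested. A head-to-head coding neighbour of any name within 3 kb was annotated for 7.93% of all other protein coding genes and for 1 of 37 collagen genes (2.70%), COL5A3, whose neighbour RDH8 began 2315 bases away. The bodies of COL4A4 and COL10A1 overlapped other coding genes: IRS1 and RHBDD1 in the case of COL4A4, and NT5DC1 in that of COL10A1.

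The gene models were not equally complete. Start and stop codons were both annotated in 33 of 37, which does not show that each of these models holds every exon. COL4A4, COL9A3 and COL23A1 lacked a start codon, and COL13A1 a stop codon. COL9A1 and COL9A3, chains of a cartilage collagen, had 4 and 6 coding exons over 468 and 723 bases. COL13A1 held an intron of 2 bases. A 5' untranslated region was annotated for 24 genes, and for 19 in the transcript taken. Of 18 genes with several coding transcripts, the share divisible by 9 differed between transcripts by over 10 percentage points in 5: from 0 to 78.8% in COL11A2, where the lower value is that of a transcript with 6 coding exons, 8.70% to 51.4% in COL6A5, 43.8% to 66.7% in COL6A2, 23.1% to 38.5% in COL4A1 and 19.0% to 29.8% in COL14A1.

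Of 45 collagen symbols considered, 37 were annotated as coding. COL7A1, the anchoring fibril collagen of the dermal-epidermal junction, was annotated as a pseudogene (chromosome 22, 51287420 to 51317102), and COL9A2 as a long noncoding RNA with 5 exons. COL6A4, COL19A1, COL21A1, COL22A1, COL24A1 and COL25A1 were not analysed here.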

How the data were processed

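The deposited gene annotation was the file used. Per the file headers the build is ARS-UCD1.2 and gene identifiers are from Ensembl; per the submitters' processing notes the study used Cell Ranger ATAC and Cell Ranger with that build, in versions not given in the sources used here. Its values are the first and last bases and reading frames that the authors deposited, counted from 1, with no count, depth or sample. Each gene was represented by the transcript with the longest coding sequence (ties by most coding exons, then lowest identifier). Coding exons are coding-sequence records, which leave out the stop codon. A run is the longest series of consecutive coding exons with lengths divisible by 9. Exons in a row shared by 2 genes had to be equal in both length and reading frame. Neighbours were pairs with at most 100 kb between gene bodies and no coding gene wholly between, and head-to-head neighbours were counted at up to 3 kb. Shares are complete counts set beside all other protein coding genes, so no test was made. Code was tested on simulated gene models. Python 3.11.15 with pandas 2.3.3 was used. The members, classes and lists, and the sets of 4 fibrillar genes, were chosen with earlier results of these data known. Genes were named where they form a pair, hold the highest or lowest value of a class, depart from their class by over 20 percentage points, or were not coding or not analysed; any other gene was named after its values were seen. No sequence is printed. Alternatives were another transcript choice, internal exons only, more exon lengths, other class limits and other distances.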

Additional observations from a re-analysis of the deposited data

How the results depend on the processing

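Of 44 alternatives over 18 results, 40 stayed inside the 95% exact binomial interval of the share or within 1.5 times the median or count. Coding exons of 1 gene are not independent, so the interval served only as a yardstick. Some alternatives could not move, such as head-to-head pairs at up to 1 kb when none lay within 3 kb. Widening the named lengths to 45, 54, 99, 108 and 162 bases moved the fibrillar share from 68.1% to 73.5% and the network share from 10.4% to 16.6%. The number of neighbouring collagen pairs was 3 at up to 100 kb, 1 at up to 20 kb and 6 at up to 500 kb. Complete models only, and the stop codon counted in the last exon, were chosen after seeing the data. All 10 fibrillar models had start and stop codons, so the first choice could not change their share divisible by 9 of 81.5%. It gave 31.2% in the other class, against 35.1%, and 40.6% in the network class, against 40.7%. With the stop codon counted, the fibrillar share was 79.9%. No paired analysis was possible because no value belongs to a sample, and for the same reason no library could be left out. The models are of cattle, and reindeer gene structure was not analysed here.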

Other observations

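The pseudogene record named COL7A1 kept a long exon series: 70 exons over 29.7 kb, of which 25 (35.7%) had a length divisible by 9, with 6 of 36 bases, 3 of 72 bases and 1 of 54 bases. Its exons were taken from exon records, since no coding sequence is annotated, so untranslated bases can be included.

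The leucine-rich repeat receptors LGR4, LGR5 and LGR6, which bind R-spondins, also had many coding exons divisible by 9: 61.1%, 61.1% and 66.7% of 18 each. Their longest runs had 5 exons, and none of these exons had 54 bases. These genes were named after their values were seen. An unnamed coding gene, ENSBTAG00000048956 (chromosome 6, 12343429 to 12440341), had 61.5% of 13 coding exons divisible by 9, and a run of 6.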
